A study of Mus musculus with 6 samples.

Results

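Top-strand hemimethylated and unmethylated versions of one DNA library, named R6, were compared for binding by recombinant mouse Gli. The library holds all 64 sequences that 3 varied bases allow. The comparison covers 2 of the 4 R6 blocks of 64 sequences in one binding reaction. Blocks were chosen by their headings in the deposited table. The whole series has 2094 sequence lines. No measured value entered the choice.

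The series holds 6 samples from 3 binding reactions, each with 1 bound and 1 unbound library. Protein and DNA were mixed, run on a 9% gel at 200 V for 30 min, and the DNA of each fraction was cut out, amplified by at least 8 PCR cycles and sequenced. In the R6 reaction the unmethylated, top-strand hemimethylated, duplex methylated and M.SssI methylated versions carried barcodes and shared the same tube, gel and pair of libraries. Titles call the protein Gli1 and the characteristics call it Gli. The labels do not name which bases of the top strand carried the methyl group.

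Gli proteins are the zinc finger transcription factors at the end of the Hedgehog signalling pathway. They bind a C-rich DNA element through a row of zinc fingers, and bases beside the core element add to or take from the affinity. In mammals DNA methylation falls mainly on the C of CpG, and fully methylated sites carry the mark on both strands. A hemimethylated site carries it on a single strand, the state that a methylated site passes through after replication. M.SssI is a bacterial enzyme that methylates the C of CpG on both strands.

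The R6 table lists only the varied bases. Their neighbours were read from the R4-R5 block of another reaction, whose 7-base sequences include every R6 triplet after each of the 4 bases and before GAA. Unmethylated R6 ratios followed those with C before the triplet most closely, with r = 0.987 over 64 sequences, against 0.882 for A, 0.889 for G and 0.918 for T. For the hemimethylated block the values were 0.938 with C, 0.924 with T, 0.907 with G and 0.846 with A. These are descriptions across sequences, which are not independent replicates. Only the base before the triplet was compared in this way. The GAA after it was taken as given and set against no other ending. The triplets on which the results turn read as follows in this setting, 5′ to 3′, with the varied bases in capitals.
Triplet GTT, the strongest sequence without methylation: cGTTgaa
Triplet GAA, the strongest sequence in the hemimethylated block: cGAAgaa
Triplet ATC, the largest fall: cATCgaa
Triplet GTC, the next largest fall: cGTCgaa
Triplet TAT, the smallest fall: cTATgaa
Triplet TAA, another of the smallest falls: cTAAgaa
With these neighbours, a G as the first varied base makes a CpG with the C before it. A C as the last varied base makes a CpG with the G after it. GTT and GAA thus hold a CpG at the front, ATC holds one at the back, GTC holds both, and TAT and TAA hold none.

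The unmethylated block held 114228 bound and 40596 unbound reads, with 486 to 4507 bound and 168 to 2256 unbound reads per sequence. The hemimethylated block held 52135 bound and 43448 unbound reads, with 178 to 2228 and 249 to 1591 per sequence. Binding is given as the ratio of bound to unbound reads, and the change as the difference in its natural log, hemimethylated minus unmethylated. Each change carries the standard error (SE) of read counting, which ran from 0.05 to 0.11. The reaction was run once, so no test across replicates was possible and no p-value is given. PCR copies were not told apart by molecular identifiers, and reads are therefore not independent molecules. The SEs cover counting error only.

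Every sequence had a lower ratio in the hemimethylated block. All 64 were lower by more than 2 counting SE, which is 100% of those measured, and 54 of 64, or 84.4%, were at least 2-fold lower. The median change was -0.95, a 2.59-fold fall. Falls ran from 1.43-fold for TAT to 4.26-fold for ATC. The SD of the change over sequences was 0.25, against 0.08 from counting alone. Against the R6 block of a separate reaction, whose ratios need not share a scale with these, the median change was -0.245 and 8 sequences were at least 2-fold lower. The part of the fall shared by all sequences cannot be told apart from an effect of the block's barcode or of how the block was prepared. Nor can the differences in the fall among sequences, since each version was prepared and read once.

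GTT, the strongest unmethylated sequence, had 4056 bound and 330 unbound reads there and 2228 and 606 in the hemimethylated block. Its ratio went from 12.3 to 3.68, a change of -1.21 ± 0.07 (counting SE). GAA had 1744 bound and 168 unbound reads without methylation and 1140 and 249 with it. Its ratio went from 10.4 to 4.58, a change of -0.82 ± 0.11. GAA thus went from rank 4 without methylation to the highest ratio in the hemimethylated block, while GTT went to rank 4. GAC and GAT followed GAA there, at 4.52 and 3.96, and all 3 have A in the middle. GAA exceeded GAC by 0.01 ± 0.10 (counting SE) on the log scale, so counting does not settle which of them was highest. It exceeded GTT by 0.22 ± 0.08. Without methylation GTT exceeded GTC by 0.03 ± 0.09 and GAA by 0.17 ± 0.10, both within 2 counting SE. Of the 10 strongest sequences 7 were common to both blocks. The weakest hemimethylated sequence was CCG, with 219 bound and 766 unbound reads and a ratio of 0.286.

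Against the unmethylated block of the same reaction, the fall differed most by the middle base. Sequences with A in the middle fell least, with a mean change of -0.71 ± 0.21 (SD, n = 16), a 2.04-fold fall. Those with G fell by 2.37-fold (-0.86 ± 0.19), those with C by 2.78-fold (-1.02 ± 0.17) and those with T by 3.26-fold (-1.18 ± 0.14). The range between A and T was 0.47 with a counting SE of 0.03, which is 1.60-fold. With R6 of the R4-R6 reaction as the reference the middle range was 0.415, and that of the front base was 0.423. No sequence with T in the middle fell by less than 0.99 on the log scale, and no sequence with A fell by more than 1.06, so the 2 groups overlapped only between these values. A fell less than T in all 16 pairs that share the outer bases, and in 14 of them by more than 2 counting SE. The difference ran from 0.09 between CAG and CTG to 0.83 between TAT and TTT.

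Other pairs of middle bases also differed in 1 direction throughout. G fell less than T in 16 of 16 contexts, by a mean of 0.32 ± 0.20 (SD), and in 10 of them by more than 2 counting SE. A fell less than C in 16 of 16, by 0.31 ± 0.14. The remaining pairs were mixed. A fell less than G in 11 of 16 contexts, with differences from -0.37 to 0.59, and C fell less than T in 13 of 16.

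These unequal falls moved the balance between A and T in the middle toward A. In the unmethylated block A bound better than T in 6 of 16 contexts. Beyond 2 counting SE, A was better in 3 and T in 6. The mean log ratio of A minus T was -0.14 ± 0.39 (SD). In the hemimethylated block A bound better in 13 of 16 contexts, and the mean was 0.33 ± 0.47. Beyond 2 counting SE, A was better there in 9 and T in 3. No context passed from T to A beyond 2 counting SE in both blocks. The means are smaller than the spread between contexts in both blocks, while the shift between the blocks, 0.47 ± 0.20, is larger than its spread. When R6 was measured in the R4-R6 reaction, A bound better in 8 of 16 contexts. Beyond 2 counting SE, A was better in 7 of these contexts and T in 6 others. Beside the outer bases of GTT, changing the middle T to A gave -0.24 ± 0.09 (counting SE) without methylation and 0.07 ± 0.07 in the hemimethylated block. Changing it to G gave -0.96 ± 0.07 and -0.27 ± 0.07, so the cost of G in that place was smaller by 0.69 ± 0.10. Changing it to C, the least favoured middle base, gave -1.18 ± 0.07 and -1.13 ± 0.07, which differ by less than 1 counting SE.

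Outer bases had smaller ranges. At the front, T fell least (-0.83 ± 0.26) and G most (-1.03 ± 0.27), a range of 0.20 ± 0.03 (counting SE). At the back, A fell least (-0.88 ± 0.25) and C most (-1.04 ± 0.25), a range of 0.17 ± 0.03. The SD within each outer base was larger than its range. With R6 of the separate R4-R6 reaction as the reference the front and back ranges were 0.42 and 0.35. At the back G then fell least (-0.14), ahead of A (-0.16), and C still fell most (-0.49). From GTT, the front variant CTT lost less than GTT did, with a difference in change of 0.22 ± 0.10. ATT and TTT differed from GTT by -0.09 ± 0.10 and 0.02 ± 0.09, within counting error. The back variants GTA, GTC and GTG differed by 0.13 ± 0.11, -0.19 ± 0.11 and -0.12 ± 0.10, also within 2 counting SE.

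The spread of the change was divided among the bases and their combinations, which the complete set of 64 allows without overlap. The middle base accounted for 51.0% of the sum of squares, the front base for 9.46% and the back base for 7.70%. The front base combined with the middle base added 18.4%, the middle with the back base 6.44%, and the front with the back base 3.26%. All 3 bases together left 3.77%, or 0.88 times the sum that counting error gives for that term. Counting error over all terms makes up 9.98%. With R6 of the R4-R6 reaction as the reference, the middle base held 23.2%, the front base 23.1% and the back base 20.7%. Against the unmethylated block of the same reaction, additive base effects held 68.1% and neighbouring pairs 24.9%. With the other reference these were 67.0% and 26.1%.

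At the front and middle the 2 extreme dinucleotides on each side had A or T in the middle place. The smallest mean falls were for TA, 1.66-fold (-0.51 ± 0.12, SD, n = 4), and CA, 1.98-fold (-0.68 ± 0.22). The largest were for AT, 3.51-fold (-1.26 ± 0.16), and GT, 3.49-fold (-1.25 ± 0.14). Next after CA was GG, at -0.69 ± 0.14, and next after GT was GC, at -1.25 ± 0.09. Each differed from the dinucleotide before it by less than the counting SE of either, so the order there is not settled. TA and AT have the same 2 bases in opposite order and differed by more than the spread within either. The sum of single-base effects alone gave -0.60 for TA and -1.23 for AT, so most of that difference lay with the single bases. CA, AT and GT departed from that sum by less than 2 counting SE, and TA by 0.09 ± 0.03 (counting SE). At the middle and back the smallest falls were for AA, 1.72-fold (-0.54 ± 0.19), and AT, 1.95-fold (-0.67 ± 0.24). The largest there were for TC, 3.77-fold (-1.33 ± 0.12), and TT, 3.22-fold (-1.17 ± 0.13). From the sum of its bases AA departed by 0.10 ± 0.03 (counting SE), and AT, TC and TT by less than 2 counting SE. AT therefore stood among the largest falls in the front step and among the smallest in the back step, as its T or its A took the middle place.

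Some front pairs departed from the sum of their bases. GG fell 1.29-fold less than its bases alone gave, a pair term of 0.26 ± 0.03 (counting SE), with a mean change of -0.69 against an additive -0.95. GC fell more than its bases gave, by -0.14 ± 0.03, as did AG (-0.13 ± 0.03), GA (-0.13 ± 0.03) and CG (-0.12 ± 0.03). AC fell less, by 0.13 ± 0.03. In the M.SssI change, which shares the unmethylated counts, GG had the same term, 0.26 ± 0.02, and GC and GA had -0.10 ± 0.02 and -0.11 ± 0.03. CG had -0.24 ± 0.02 there. AG and AC had 0.02 ± 0.02 and 0.01 ± 0.03, within counting error, so their terms did not recur. Between R6 blocks of separate reactions front pair terms reached 0.13, about the size of those of AG, GA, CG and AC, and GC stood at -0.10 and GG at 0.06. Altogether 9 of 16 front pairs, 56.2%, lay beyond 2 counting SE, 4 above and 5 below. At the back 6 of 16, 37.5%, did so, and the farthest was AG at -0.12 ± 0.03. The 3 sequences farthest above the additive fit were GGT, by 0.37 ± 0.06, GGG, by 0.23 ± 0.05, and GGA, by 0.23 ± 0.07. Those farthest below were AGC, by -0.25 ± 0.07, GAG, by -0.24 ± 0.06, and CGA, by -0.23 ± 0.07.

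Single sequences were then read against the median fall of the block. Of 64 sequences 13, or 20.3%, fell beyond the median by at least 0.223 on the natural log scale and by more than 2 counting SE, and 11, or 17.2%, fell less by the same margins. Of the 13, 9 had T in the middle, 3 had C, 1 had G and 0 had A. Of the 11, 7 had A and 4 had G, with 0 for C and T. A wider margin of 1.5-fold left 2 and 5 sequences. ATC fell from a ratio of 6.22 (1773 bound, 285 unbound reads) to 1.46 (899 and 617). GTC fell from 11.9 to 2.94, GCG from 2.56 to 0.678, GTG from 7.29 to 1.93 and GCC from 2.92 to 0.773. These 5 largest falls lay between 3.77-fold and 4.26-fold, and 3 of the 5 have T in the middle and 2 have C.

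The 5 smallest falls were all in sequences with A or G in the middle. TAT went from 3.17 (1689 bound, 533 unbound reads) to 2.22 (1552 and 699), a change of -0.36 ± 0.07 (counting SE). CAA changed by -0.42 ± 0.09, TAA by -0.46 ± 0.08, AAA by -0.47 ± 0.09 and GGT by -0.52 ± 0.07. CAA, with ratios of 2.80 and 1.84, made the largest move in order, from rank 38 to rank 15. In total 11 sequences moved by 10 ranks or more. Against R6 of the R4-R6 reaction TAT, CAA, TAA and AAA were higher in the hemimethylated block, by 0.161, 0.119, 0.155 and 0.410, and GGT was lower.

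Sequences with a CpG fell slightly more than those without. The 30 sequences without CpG changed by a mean of -0.87 ± 0.24 (SD), and their values ran from -1.30 to -0.36. The 12 with a CpG at the front end but not the back end, GCG among them, had -0.995 ± 0.268. The 12 with one at the back end but not the front end, CGC among them, had -1.02 ± 0.25. The 4 with both, GAC, GCC, GGC and GTC, had -1.12 ± 0.28. Differences from sequences without CpG were -0.13 ± 0.03 (counting SE), -0.15 ± 0.03 and -0.26 ± 0.04, below or near the SD within each class. Against R6 of the R4-R6 reaction they were -0.36, -0.32 and -0.55. Of these 28 sequences 23 lay within the range of those without CpG. Since a CpG at either end is the same thing as G at the front or C at the back, the CpG and the base cannot be told apart here.

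Sequences with a CpG inside the varied bases alone fell about as much as those with one at an end. CGA, CGG and CGT, with the C at the front, fell 2.73-fold, 2.35-fold and 2.58-fold. ACG, CCG and TCG, with the C in the middle, fell 2.78-fold, 3.08-fold and 2.53-fold. Their means differed from sequences without CpG by -0.07 ± 0.04 (counting SE) with the C at the front and by -0.16 ± 0.05 with the C in the middle. All 6 lay within the range of sequences without CpG. GCG and CGC, which also hold a CpG at an end and were counted in those classes, changed by -1.33 ± 0.06 (counting SE) and -1.05 ± 0.07. The pair term for CG was -0.12 ± 0.03 at the front and -0.05 ± 0.03 at the back.

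The order of middle bases from A to T was also present without any CpG. Among the 30 sequences without CpG, those with A in the middle changed by a mean of -0.61 ± 0.21 (SD, n = 9) and those with T by -1.11 ± 0.11 (n = 9). Those with C and G lay between, at -0.88 ± 0.09 and -0.86 ± 0.15 (n = 6 each). In the 9 contexts where neither sequence held a CpG, A fell less than T by 0.50 ± 0.22, with values from 0.09 to 0.83. This restriction was chosen after the values were seen.

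The M.SssI block, read from the same tube and set against the same unmethylated block, had its changes at other bases. Its total was 174691 bound and 90103 unbound reads. There 86.2% of the sum of squares of the change lay with the back base, 9.65% with the front base and 0.714% with the middle base. The range of middle-base means was 0.21, with C highest and A lowest, while the range at the back was 2.35, a 10.4-fold difference. Sequences with a CpG at the back end but not the front end changed by -2.13 ± 0.44 (SD, n = 12). Those without CpG changed by 0.14 ± 0.06. In the hemimethylated block the same classes stood at -1.02 and -0.87. GAC shows the contrast, with ratios of 11.4 unmethylated, 4.52 hemimethylated and 0.337 in the M.SssI block. TTT, without CpG, had 2.84 unmethylated, 0.866 hemimethylated and a change of 0.08 ± 0.05 (counting SE) in the M.SssI block. In that block 29 of 64 sequences, 45.3%, were lower by more than 2 counting SE and 23, or 35.9%, were higher. The difference between the 2 treatments has no replicate check, and both changes share the unmethylated counts.

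A further R6 block, from the R4-R6 reaction, gave a measure of how far R6 blocks differ between reactions. Its heading names no methylation state, and the characteristics of its samples describe another library, so its state rests on its heading and title. The unmethylated block of the R6 reaction minus this block had an SD of 0.20 over 64 sequences, against 0.25 for the change on hemimethylation. Ranges of base means in that difference were 0.24 at the front, 0.16 in the middle and 0.30 at the back. The front and back ranges of the hemimethylated change, 0.20 and 0.17, were no larger than these, while the middle range of 0.47 was. The mean of A minus T in the middle was -0.05 ± 0.18 (SD) between those blocks. The largest pair term between them at the back was 0.12. With this block as the reference for the hemimethylated one, A minus T was 0.42.

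The range of binding was kept in the hemimethylated block. The SD of the log ratio over the 64 sequences was 0.705 without methylation and 0.706 with it. The slope of the hemimethylated on the unmethylated log ratio was 0.94 ± 0.04 (regression SE). The hemimethylated log ratios divided their own sum of squares as 24.6% front, 40.7% middle and 21.5% back, against 33.0%, 32.3% and 19.3% without methylation. G at the front stayed the best front base, above A, C and T in every context of both blocks.

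Base composition of the pooled bound and unbound reads differed between the blocks at all 3 varied bases. A in the middle held 20.1% of all reads in the unmethylated block and 24.1% in the hemimethylated block, and G held 32.8% and 27.0%. T held 28.3% and 30.6%, and C 18.8% and 18.2%. A and T in the middle, which fell least and most, thus both took a larger share of reads. G lost share at the outer bases too, from 36.4% to 30.6% at the front and from 31.2% to 25.1% at the back. The total ratio of bound to unbound reads was 2.81 in the unmethylated and 1.20 in the hemimethylated block. Pooled shares therefore follow the bound share of each block as well as its composition. The part of the difference in composition in the change was not tested. By number of G or C bases the mean change went from -0.85 ± 0.38 (SD, n = 8) with 0 to -1.04 ± 0.22 (n = 8) with 3, within the SD of either. By number of A or G bases it went the other way, from -1.03 ± 0.18 (n = 8) with 0 to -0.81 ± 0.19 (n = 8) with 3, a difference larger than either SD.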

How the data were processed

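The authors deposited whole-number counts of reads for each sequence, bound and unbound, per the file headers. The counts carry no scaling for depth. They also deposited the ratio of bound to unbound counts and, in a column without a heading, minus its natural log, which matched the counts within 0.0005. The software that counted reads is not given in the sources used here.

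Each log ratio was ln of (bound + 0.5) over (unbound + 0.5), with at least 10 reads per count. The counting SE was the square root of the summed reciprocal counts. The balanced set of 64 sequences was divided into base, pair and triple terms by orthogonal projection. Calls needed 2 counting SE. Calculations were tested on simulated data and used Python 3.11.15, numpy 2.4.6, pandas 2.3.3 and scipy 1.17.1.

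Named sequences were the strongest unmethylated one with its 9 single-base variants, the strongest and weakest hemimethylated, the 5 largest and 5 smallest falls with at least 100 reads per count, those with an inner CpG, the 2 extreme dinucleotides on each side and the 3 extreme residuals. GAC, GAT, TTT and pairs at the ends of a range were named after their values were seen. Members, classes and rules were chosen with earlier results of these data known.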

Additional observations from a re-analysis of the deposited data

How the results depend on the processing

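The reaction was run once and no labels number replicates. No paired analysis was possible because no group has a numbered replicate. All 64 recomputed results kept their direction without a pseudocount and with a pseudocount of 1. They stayed within their counting intervals, counts within 1.5 times. The median change was -0.9513 without a pseudocount and -0.9495 with 1, against -0.9505. Every count held at least 168 reads, so the pseudocount had little to act on and this is a weak check. A floor of 100 reads per count removed no sequence and therefore tested nothing. The alternatives for centring, weights and the slope also kept their direction and stayed within the same limits. With inverse-variance weights A at the front deviated from the mean over bases by -0.068 and G by -0.066. A rather than G then fell most there, by a margin within counting error. A margin of 1.5-fold in place of the narrower one left 2 sequences below and 5 above the median of the block.

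With R6 as measured in the R4-R6 reaction taken as reference, levels from separate reactions are compared, so levels moved. The median change was -0.245 and 8 sequences were at least 2-fold lower. Base ranges were 0.423 at the front, 0.415 in the middle, also the A minus T difference, and 0.353 at the back. The slope was 0.765. CpG classes less those without CpG stood at -0.356 (front), -0.317 (back), -0.555 (both), -0.183 (inner, front) and -0.0192 (inner, back). Deviations from the mean over bases reversed for A at the front (0.030), C in the middle (0.0217) and T at the back (-0.0613). G at the back went from -0.030, within its counting interval, to 0.146, the highest there. Changes reversed for TAT (0.161), CAA (0.119), TAA (0.155), AAA (0.410) and GGG (0.0984). The cause was not tested.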
